A study of Mus musculus with 2 samples.

Results

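The miR-30 family is a set of microRNA genes, here the 6 gene rows Mir30a, Mir30b, Mir30c-1, Mir30c-2, Mir30d and Mir30e. They were chosen by gene identifier and not by level, and all 6 were found among the 1973 gene rows of the deposited tables. A microRNA (miRNA) is a short RNA cut from a folded precursor, the hairpin, whose left arm gives a 5p strand and whose right arm gives a 3p strand. Bases 2 to 8 of the mature strand, the seed, pair with target messenger RNAs and lower their output, so miRNAs with 1 seed are taken as a family with overlapping targets. In the heart the family is known from muscle cells, where in rats miR-30c represses connective tissue growth factor, a driver of matrix deposition.

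The samples were hearts of healthy B6NCrl mouse embryos at 13.5 days, with males and females pooled. The labels name 2 biological replicates with separate biosample records and 1 shared donor record. They give no treatment, no altered allele and no second group. RNA of a size class below 30 nucleotides was sequenced, and reads were counted per miRNA gene. The tissue is whole heart, so fewer cells of a type and less RNA per cell cannot be told apart.

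Sense-strand reads at miRNA genes numbered 5569959 in replicate 1 and 6039005 in replicate 2. Levels are counts per 1000000 such reads (CPM). Where no read was counted, up to 3 reads remain possible, or 0.539 CPM in replicate 1 and 0.497 in replicate 2. Markers of heart muscle were present. Mir208b, which lies in a cardiac myosin gene, averaged 42964 ± 1728 CPM (SD, n = 2) and Mir208a 7263 ± 121 CPM. Of the 7 cardiomyocyte miRNAs listed, 6 had a row, and 3 of those reached 10 CPM, the third being Mir499. The others went the other way, with Mir1a-1 at 4.07 ± 0.598 CPM, Mir133a-1 at 2.89 ± 1.30 CPM and Mir133a-2 at 0. These rows are numbered copies of miRNAs with more than 1 listed locus. Reads that fit more than 1 locus may be in no gene row, so these rows need not give the level of the mature miRNA. Mir126a, an endothelial miRNA, reached 70450 ± 6259 CPM, and 4 of 6 neural rows held no count. Those rows, Mir124a-1, Mir124a-2, Mir124a-3 and Mir9-2, are numbered copies as well, so their mature miRNAs need not be absent. Of the other neural rows, Mir137 was at 83.1 CPM in replicate 1 and 52.7 in replicate 2, near the level of Mir30c-1. Mir9-3, also a numbered copy, held 14 counts in replicate 1 and 9 in replicate 2. Intervals below are exact 95% Clopper-Pearson intervals. They cover counting error alone, as PCR copies of 1 molecule are counted more than once.

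The sequences shown first are the arms that make the genes a family, from RefSeq on GRCm38.p6. Of the 6 genes, 4 had an entry there, and Mir30b and Mir30d did not. All 3 distinct 5p sequences of those 4 genes carry 1 seed, in capitals, and Mir30c-1 and Mir30c-2 list the same 5p strand.
miR-30a-5p: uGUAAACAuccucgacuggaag
miR-30e-5p: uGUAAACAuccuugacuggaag
miR-30c-5p: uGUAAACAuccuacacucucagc
On GRCm38.p6 the miR-30a strand lies at chr1:23272274-23272295 on the plus strand and the miR-30e strand at chr4:120772660-120772681 on the minus strand. The miR-30c strand lies at both chr4:120769584-120769606 on the minus strand and chr1:23291714-23291736 on the plus strand. The 5p strands of Mir30a and Mir30e differ at 1 of 22 positions, C13U, counted from the 5′ end with the miR-30a base first. The miR-30c strand matches miR-30a over the first 12 bases and at 17 of 22 positions in all. This seed stands in 5 of 1738 mature entries of the RefSeq table (0.288%), and 4 of those belong to the family.

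The 3p strands fall into a pair of seed groups that follow the same split. Those of Mir30a and Mir30e share one seed, and those of the miR-30c loci share another.
miR-30a-3p: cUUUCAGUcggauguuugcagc
miR-30e-3p: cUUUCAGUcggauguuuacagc
miR-30c-1-3p: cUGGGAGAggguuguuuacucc
miR-30c-2-3p: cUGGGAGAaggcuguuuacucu
The strands of Mir30a and Mir30e differ by G18A alone. Those of Mir30c-1 and Mir30c-2 differ at 3 of 22 positions, G9A, U12C and C22U. The deposited rows count reads per gene, so the 5p and 3p strands of a gene cannot be told apart in the values that follow.

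The genes lie as 3 pairs on 3 chromosomes, each on 1 strand, in coordinates of mm10. Mir30a (chromosome 1, 23272269 to 23272339, plus strand) overlaps no other annotated transcript. Mir30c-2 (23291701 to 23291784) lies downstream of it, inside an exon of the long non-coding RNA gene Gm27028. Their starts are 19432 nucleotides apart. Mir30e (chromosome 4, 120772606 to 120772697, minus strand) and Mir30c-1 (120769534 to 120769622) lie in introns of Nfyc, which encodes a subunit of the transcription factor NF-Y, 3072 nucleotides apart. Mir30d (chromosome 15, 68341208 to 68341289, minus strand) lies in an exon of the long non-coding RNA gene Gm20732. Mir30b (68337415 to 68337510) lies 3793 nucleotides from it, and 16 of its 96 nucleotides overlap an exon of the processed transcript Gm26621. The Ensembl identifiers are ENSMUSG00000065405 for Mir30a, ENSMUSG00000065567 for Mir30c-2, ENSMUSG00000065409 for Mir30e, ENSMUSG00000065490 for Mir30c-1, ENSMUSG00000065437 for Mir30d and ENSMUSG00000065476 for Mir30b. That of Mir30a carries another version in the tables than in the annotation used here, so its hairpin bounds may differ from those the authors counted.

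Together the 6 genes took 4.73% ± 0.398 of all sense counts (SD, n = 2). The share was 4.45% in replicate 1 (4.433 to 4.467) and 5.01% in replicate 2 (4.995 to 5.030). Mir30e, Mir30a and Mir30d carried nearly all of it, at 99.5% of the family's counts. If reads of miR-30c-5p are in neither miR-30c row, the family's counts lack them. These shares, and those below, therefore hold for the rows as counted. All 6 genes passed 10 CPM, and none held a count on the opposite strand in either library.

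Mir30e was the highest of the family, at 22573 CPM in replicate 1 and 25619 in replicate 2. It ranked 11 of all gene rows in both libraries and made up 50.9% ± 0.272 of the family's counts. Mir30a had 12515 and 14795 CPM in replicates 1 and 2, or 28.8% ± 0.985 of the family. Mir30d had 9178 and 9447 CPM, or 19.7% ± 1.26 of the family. A wide step separated these genes from the rest.

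Mir30b had 124 CPM in replicate 1 and 127 CPM in replicate 2, from 690 and 767 counts. Mir30c-1 had 66.1 and 82.3 CPM, from 368 and 497 counts. Mir30c-2 was the lowest at 43.1 and 53.3 CPM, from 240 and 322 counts. These genes ranked 166, 199 and 223 by mean CPM and together stayed below 1% of the family, with 0.266% for Mir30b, 0.156% for Mir30c-1 and 0.102% for Mir30c-2. Since Mir30c-1 and Mir30c-2 list 1 mature 5p strand, how its reads were assigned, and whether they are in either row, is uncertain. From Mir30e to Mir30c-2 the family spanned 500-fold in mean CPM in the rows as counted.

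**Figure D1:**
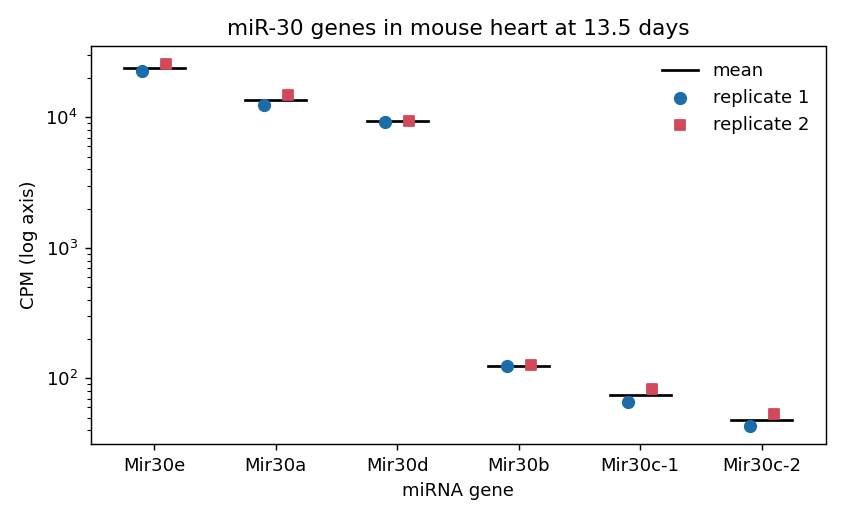
Level of each miR-30 gene in CPM on a log axis, with replicate 1 as circles, replicate 2 as squares and their mean as a line. Mir30e, Mir30a and Mir30d lie between 9178 and 25619 CPM, and Mir30b, Mir30c-1 and Mir30c-2 between 43.1 and 127 CPM.

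The order of the levels was the same in both libraries. Mir30e over Mir30a had a log2 ratio of 0.82 ± 0.0416 (SD, n = 2), or 1.77-fold. Mir30a over Mir30d had 0.55 ± 0.141, at 1.36-fold in replicate 1 and 1.57-fold in replicate 2. Mir30d over Mir30b made the widest step, at 74.2-fold. Below it the steps were again narrow. Mir30b over Mir30c-1 had 0.77 ± 0.199, at 1.88-fold in replicate 1 and 1.54-fold in replicate 2. Mir30c-1 over Mir30c-2 had 0.62 ± 0.00673, at 1.53-fold (1.30 to 1.81) in replicate 1 and 1.54-fold (1.34 to 1.78) in replicate 2. For each of the 5 steps between neighbours in this order, the log2 ratio exceeded its SD over the libraries. No p-value is attached to the steps, because sign flips over 2 libraries give an exact p of 0.5 at the least. These are ratios of read counts in the gene rows. Cloning and amplification can differ between mature strands, which was not tested.

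Each genomic pair joined a high and a low gene in the rows as counted. Mir30a exceeded Mir30c-2 by 284-fold, which is 8.15 ± 0.0466 in log2 (SD over 2 libraries). It was 290-fold (256 to 331) in replicate 1, from 69710 over 240 counts, and 277-fold (249 to 311) in replicate 2, from 89349 over 322 counts. The intervals overlap, and the difference between the libraries in this ratio was not tested.

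Mir30e exceeded Mir30c-1 by 326-fold, a log2 ratio of 8.35 ± 0.0950. The ratio was 342 (308 to 379) in replicate 1, from 125730 over 368 counts, and 311 (285 to 341) in replicate 2, from 154712 over 497 counts. These hairpins lie in introns of 1 host gene. The intervals of this ratio and of Mir30a over Mir30c-2 overlapped in each library.

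Mir30b had 0.0135 times the counts of Mir30d, a log2 ratio of -6.21 ± 0.00407. Mir30d was 74.1-fold higher (68.7 to 80.0) in replicate 1, from 51121 over 690 counts, and 74.4-fold higher (69.3 to 80.0) in replicate 2, from 57053 over 767 counts. Its intervals lay below those of both miR-30c pairs as counted in both libraries. Since reads of miR-30c-5p may be in neither miR-30c row, the true order of the 3 gaps was not settled.

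Among all miRNA genes such inequality was common. Of 134 neighbouring pairs with starts at most 10000 nucleotides apart on 1 strand and at least 1 gene at 10 CPM, 116 (86.6%) differed by 2-fold or more in 1 direction in both libraries, and 58.2% by 10-fold or more. The pair of Mir30a and Mir30c-2 is farther apart than that. Within 50000 nucleotides 148 pairs qualified, of which 87.2% differed by 2-fold and 58.8% by 10-fold. All 3 miR-30 pairs passed both folds, as did the majority of neighbours in this set. Within 50000 nucleotides the median absolute log2 ratio was 4.39, and 20.9% of pairs had one as large as Mir30e with Mir30c-1. The shares for Mir30a with Mir30c-2 and for Mir30b with Mir30d were 23.0% and 35.1%. These figures include pairs whose other gene was near or at 0 CPM, such as Mir434 with Mir432, while every miR-30 gene passed 10 CPM. With both genes at 10 CPM, 79.1% of 86 pairs within 10000 nucleotides differed by 2-fold. The place of the miR-30 pairs by ratio among pairs of that kind was not analysed. The ratios of the miR-30 pairs differed between the libraries by 0.01 to 0.13 on the log2 scale, against a median of 0.22 over those 148 pairs.

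**Figure D2:**
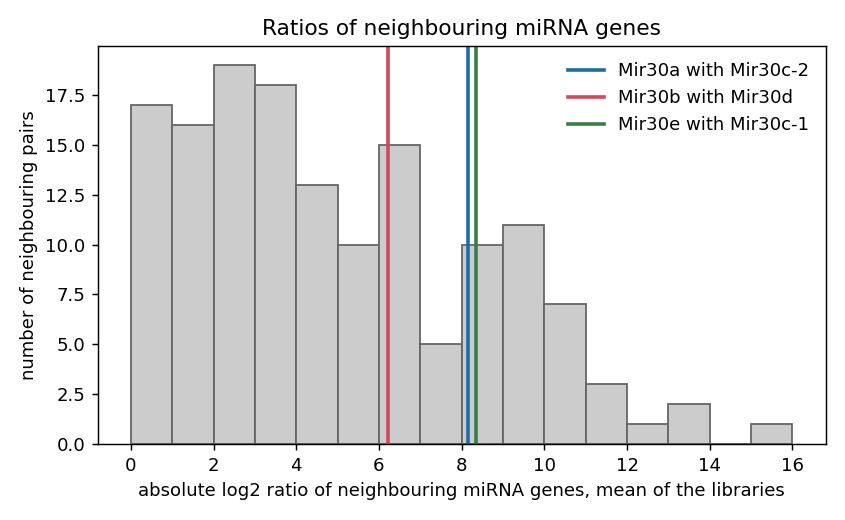
Number of neighbouring miRNA gene pairs within 50000 nucleotides on 1 strand, by the absolute log2 ratio of their counts averaged over the libraries, with a line for each miR-30 pair. The lines for Mir30a with Mir30c-2 (8.15) and Mir30e with Mir30c-1 (8.35) lie close together, and that for Mir30b with Mir30d stands at 6.21.

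In each miR-30 pair the gene first in the direction of transcription was the higher one, Mir30a on chromosome 1, Mir30e on chromosome 4 and Mir30d on chromosome 15. Over all neighbouring pairs the upstream gene was higher in both libraries in 53.0% within 10000 nucleotides and in 50.7% within 50000, so the upstream side was not the higher one in general. With 3 pairs the family gives no more than this count.

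**Figure D3:**
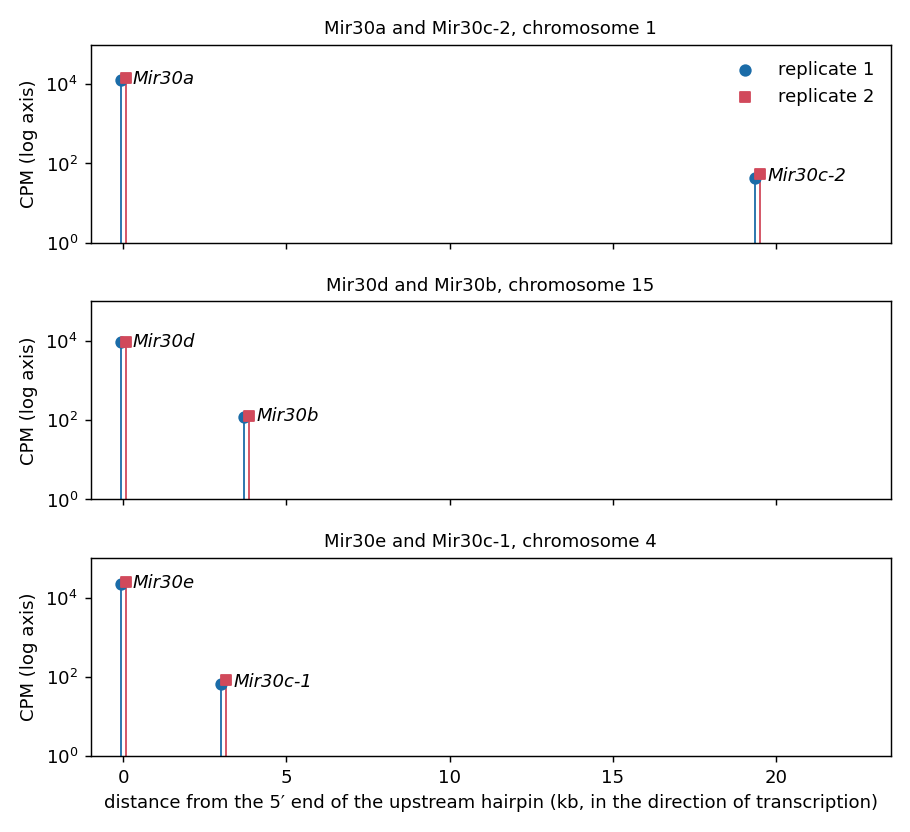
Each genomic pair drawn to scale, with the distance from the 5′ end of the upstream hairpin in kb along the direction of transcription and the level in CPM on a log axis, replicate 1 as circles and replicate 2 as squares. The upstream gene is the higher in all 3 pairs, by 74.2-fold to 326-fold.

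By pair, Mir30e with Mir30c-1 held 51.1% ± 0.283 of the family's counts, Mir30a with Mir30c-2 28.9% ± 0.991, and Mir30b with Mir30d 20.0% ± 1.27. The pair of Mir30b and Mir30d held 20.9% in replicate 1 and 19.1% in replicate 2, and both other pairs held the larger share in replicate 2.

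The miR-30c loci are the members with a 5p strand in common, and both were low. The tables tally multi-mapping reads apart from the genes, and these made up 26.9% of all reads in replicate 1 and 28.0% in replicate 2. These tables do not state whether such reads are also in gene rows. The total of all reads takes them to be in none. If they are in none, a read of miR-30c-5p is counted at neither locus, and the values of Mir30c-1 and Mir30c-2 are lower bounds on the mature miRNA. The ratios of Mir30a over Mir30c-2 and of Mir30e over Mir30c-1 are then upper bounds. Of 869 gene rows with a RefSeq hairpin, 85 held a mature sequence that the hairpin of another locus also holds. Of these rows 41.2% reached 10 CPM, with a median of 71.8 CPM among those that did. Of the other 784 rows 27.9% did, with a median of 253 CPM. Over all rows of each class the medians ran the other way, at 2.98 CPM for the 85 rows and 0.414 CPM for the 784. Mir30c-1 and Mir30c-2 ranked 16 and 19 among the 85. Mir30b, low as well, has no RefSeq entry in that table, so its overlap with other loci was not analysed here.

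Families of similar build were set beside miR-30. The let-7 family, known from differentiation, took 9.48% ± 0.398 of sense counts (SD, n = 2) at the 9 of 11 listed genes that had a row. The miR-26 family, in introns of Ctdsp phosphatase genes, took 2.78% ± 0.272 at 3 rows. The miR-181 family, known from lymphocytes and vessels, took 0.707% ± 0.0247 at 6 rows. Loci that hold a mature sequence of another locus gave 0.258% ± 0.0179 of the counts of the miR-30 family. They gave 1.34% ± 0.0883 of the let-7 counts, 0.116% ± 0.0183 of the miR-26 counts and 31.3% ± 0.160 of the miR-181 counts. Among counted reads, these shares are minimums for the miR-30 and miR-181 families, since Mir30b, Mir30d and Mir181c have no hairpin in the table and were not classed. Mir30d alone held 19.7% of the miR-30 counts and Mir181c 37.0% of the miR-181 counts, so the families were not ranked by this share. In each of these families, let-7 and miR-26 included, reads of a sequence held at more than 1 locus may be in no gene row. The totals and shares of each family therefore hold for the rows as counted.

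The miR-181 genes also lie as 3 pairs, with narrower gaps in the rows as counted. Mir181a-1 exceeded Mir181b-1 by 51.4-fold (log2 5.68 ± 0.227, SD, n = 2) and Mir181b-2 exceeded Mir181a-2 by 14.3-fold (3.83 ± 0.343). Mir181c exceeded Mir181d by 1.17-fold (0.22 ± 0.00953). The gap of Mir30d over Mir30b, at 74.2-fold, was wider than each of these. Mir181a-1, Mir181a-2, Mir181b-1 and Mir181b-2 each hold a mature sequence of another locus. Their ratios, like those of the miR-30c loci, depend on how such reads were assigned, which is uncertain. The difference between the families was not tested.

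**Figure D4:**
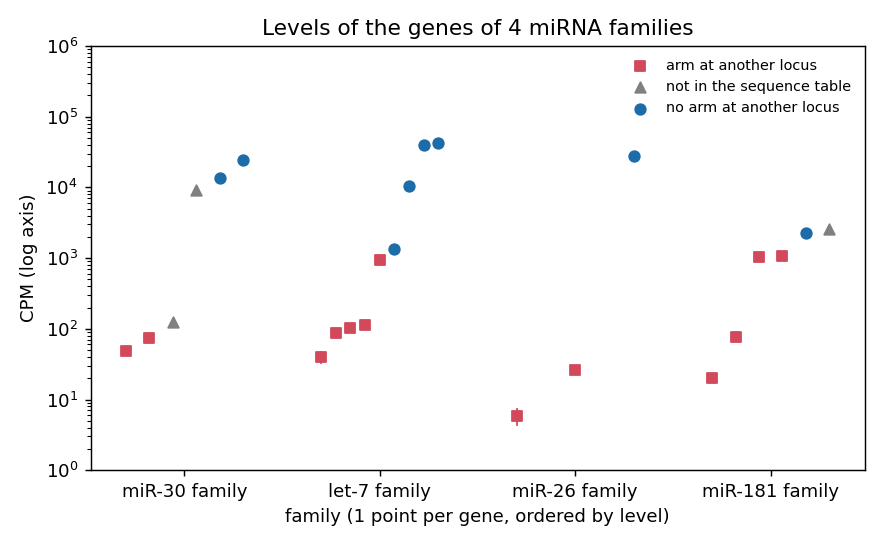
Level in CPM on a log axis of each gene of the miR-30, let-7, miR-26 and miR-181 families, with the mean of the libraries as a point and a bar from replicate 1 to replicate 2. Squares mark loci that hold a mature sequence of another locus, circles loci that do not, and triangles genes with no RefSeq hairpin in the table; the 2 miR-30 squares lie at 48.2 and 74.2 CPM.

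Other genes with the miR-30 seed were looked for among the RefSeq mature sequences. Mir384 on the X chromosome (105344282 to 105344369, minus strand) was the only other gene row that had it. Its 5p strand matches miR-30a over the first 8 bases and at 12 of 22 positions.
miR-384-5p: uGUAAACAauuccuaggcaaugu
Mir384 held 8 counts in replicate 1 and 15 in replicate 2, or 1.96 ± 0.741 CPM. That is 0.00323% and 0.00496% of the counts of Mir384 and the 6 miR-30 genes together in replicates 1 and 2. Mir30c-2, the lowest of the family, had 30.0 times as many counts in replicate 1 (15.0 to 70.3) and 21.5 times as many in replicate 2 (12.8 to 38.8).

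Mir30f is annotated on the plus strand at the position of Mir30e, and its mature sequence begins with the seed letters of the family.
miR-30f: gUAAACAUccgacugaaagcuc
Its own level was not analysed here. Neither library had a count on the opposite strand of Mir30e, so reads of Mir30f could reach at most 0.539 CPM in replicate 1 and 0.497 in replicate 2.

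The libraries differed slightly at the family. All 6 members were lower in replicate 1 than in replicate 2, where 34.4% of the 288 genes that averaged at least 10 CPM were. None of the 6 was past 1.5-fold, where 5.90% of those genes were. With 1 library on each side these values compare the libraries and no condition.

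In each genomic pair, the interval of the lower gene's CPM ratio between the libraries held that of the higher gene. Mir30a had 0.846 times in replicate 1 the level of replicate 2 (0.838 to 0.854), and Mir30c-2 0.808 times (0.681 to 0.958). Mir30e had 0.881 times (0.875 to 0.888) and Mir30c-1 0.803 times (0.700 to 0.920). Mir30d had 0.971 times (0.960 to 0.983) and Mir30b 0.975 times (0.879 to 1.08). The interval of Mir30b includes 1. By value alone Mir30c-1 lay nearest to Mir30c-2 of the other pair, and Mir30e lay nearer to Mir30a than to Mir30c-1. Since the intervals of partners overlap, whether the ratios sort by genomic pair was not settled. The genes on chromosome 15 lay closest to equal levels.

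On the log2 scale with 1 CPM added, the members' ratios of replicate 1 over replicate 2 ran from -0.31 to -0.04 with a median of -0.21. The median of all 288 genes was 0.10. Under the TMM scaling of edgeR that median was close to 0, 50.7% of genes were lower in replicate 1, and the 6 members ran from -0.41 to -0.14. Against the median of all genes the family's median lay 0.31 lower, a difference that no rescaling of whole libraries can change. Mir30c-1, Mir30c-2 and Mir30a lay in the lowest 5.56%, 5.90% and 7.99% of genes, Mir30e in the lowest 10.8%, and Mir30d and Mir30b in the lowest 29.5% and 30.9%.

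Markers of cell types differed between the libraries too. The cardiomyocyte list took 5.07% of counts in replicate 1 and 5.34% in replicate 2, with Mir133a-2 at 0 in both. In replicates 1 and 2 the endothelial marker Mir126a, the 1 gene row of 2 listed, took 7.49% and 6.60%, the smooth muscle list 8.51% and 9.35%, and the fibroblast list 1.97% and 2.07%. Again in replicates 1 and 2, erythroid miRNAs took 0.126% and 0.0959%, leukocyte miRNAs (2 rows of 3 listed) 0.0587% and 0.0473%, epithelial miRNAs 0.243% and 0.190%, and the neural list 0.00856% and 0.00541%. Mir122, the main miRNA of hepatocytes, took 0.0201% in replicate 1 and 0.0591% in replicate 2. Rows of numbered copies, such as Mir133a-2, may also lack reads that fit more than 1 locus. The sum of a list need not describe each of its rows. In the fibroblast list Mir21a was at 16216 CPM in replicate 1 and 17793 in replicate 2. The other fibroblast rows were lower in replicate 2, such as Mir214 at 2992 and 2522 CPM in replicates 1 and 2. Mir208a and Mir1a-1 of the cardiomyocyte list were lower in replicate 2, and Mir155 of the leukocyte list higher, against the sums of their lists. No row of the smooth muscle, fibroblast, erythroid, leukocyte or epithelial lists was at 0 in both libraries. The part of these differences in the ratios of the miR-30 genes was not tested.

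**Figure D5:**
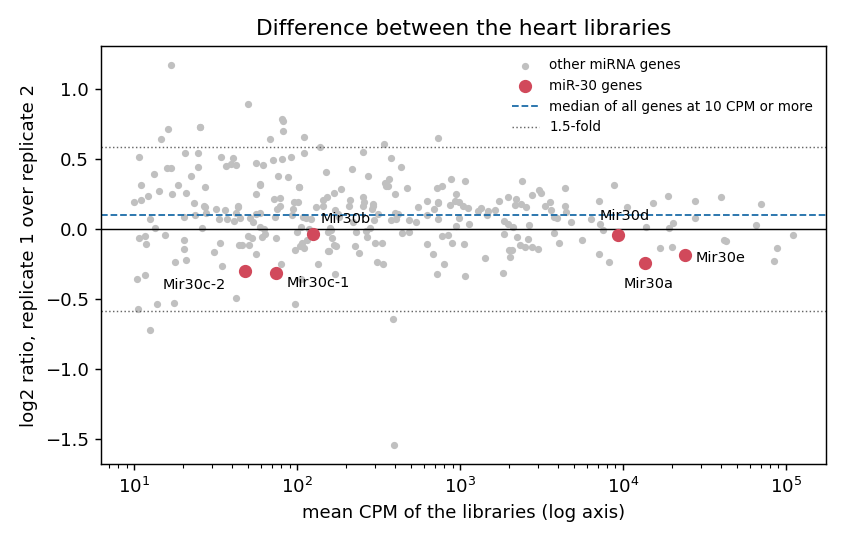
Log2 ratio of replicate 1 over replicate 2 for each miRNA gene that averaged at least 10 CPM, against its mean CPM on a log axis, with miR-30 genes in colour, the median of all genes as a dashed line and 1.5-fold as dotted lines. The 6 miR-30 genes lie between -0.31 and -0.04, below the median of 0.10 and inside the dotted lines.

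The genes with levels most like each member were taken by distance in log2(CPM + 1) over the 2 libraries, which describes level alone. Mir351, at 27754 ± 1047 CPM, and Mir17, at 19922 ± 1221 CPM, lay nearest to Mir30e, at distances of 0.345 and 0.388. Mir652 (13956 ± 85.5 CPM) and Mir23b (15364 ± 1398 CPM) lay nearest to Mir30a. Mir22 (8852 ± 1362 CPM) and Mirlet7d (10621 ± 816 CPM) lay nearest to Mir30d. For the low members the nearest were Mir1981 (122 ± 4.55 CPM) and Mir148b (118 ± 0.0592 CPM) at Mir30b, Mir302c (79.5 ± 9.83 CPM) and Mir450-1 (74.0 ± 2.35 CPM) at Mir30c-1, and Mir378c (46.2 ± 2.60 CPM) and Mir670 (50.5 ± 2.84 CPM) at Mir30c-2.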

How the data were processed

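The authors deposited raw read counts per miRNA gene, which per their accompanying notes were aligned to mm10 and counted on GENCODE mouse release 4. The labels and notes name neither the aligner nor the trimming. Each table holds counts for both strands together, for the sense strand and for the opposite strand, and both equalled sense plus opposite at all 1973 gene rows. Sense counts were used. Read classes that name no gene stayed out of the totals: unmapped reads were 21.2% and 17.2%, multi-mapping reads 26.9% and 28.0%, and reads outside genes 3.60% and 2.92% of the 12136246 and 12282789 reads in replicates 1 and 2. The total of all reads sums the gene counts and the read classes, which takes multi-mapping reads to be in no gene row. If they are also in gene rows, that total is too large and the shares of all reads are too low. Of the gene rows, 1281 held no count in either library.

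CPM was computed from sense totals. Gene names, places and overlaps came from GENCODE mouse release 21 on the same build, matched without the identifier's version, for 1894 rows. Python 3.11.15 with numpy 2.4.6, pandas 2.3.3, scipy 1.17.1 and matplotlib 3.10.9 was used. Ratios within a library used raw counts with exact 95% Clopper-Pearson intervals. Ratios between libraries used CPM plus 1 for genes averaging at least 10 CPM, with edgeR 4.0.16 (TMM) and DESeq2 1.42.0 size factors in R 4.3.3 as other scalings. The size factors were estimated on those genes, since most rows hold no count. For neighbours a count of 0 was set to 3. No p-value was computed: 1 group was measured, in 2 libraries. On simulated counts for 288 genes, of which 200 were changed 2-fold, the 1.5-fold rule recovered 199 and called no other gene under TMM. These counts held counting error alone and no other variation between libraries. They check the computation and give no rate of false calls for the real libraries, where 5.90% of genes passed 1.5-fold.

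Named are the 6 members, other genes with their seed, the 2 genes nearest in level to each member, the let-7, miR-26 and miR-181 families, cell type markers and the most abundant gene, Mir335 at 110067 ± 2450 CPM (SD, n = 2). Members, lists and measures were chosen with earlier results of these data known.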

Additional observations from a re-analysis of the deposited data

Results flagged for a closer look

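Reads in the multi-mapping class made up 26.9% of all reads in replicate 1 and 28.0% in replicate 2. They were singled out because the class is large and its total enters no comparison. Whether its reads are also in gene rows is not stated, and the total of all reads takes them to be in none. The tables do not say which genes they come from, and no control sample was measured. The miR-30c-5p strand is listed at 2 loci; whether its reads are among them was not tested.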

How the results depend on the processing

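Of 68 combinations of a result and another setting, 62 stayed within the limits for an unchanged value and 6 moved. None changed direction. For pair ratios, shares and levels the limit was the SD over the libraries. Leaving out 1 of 2 libraries always moves such a value by less than that SD. Pair ratios on both strands could not move either, as no member held a count on the opposite strand. Those combinations count among the 62 and are no check on the results. The family's share was 2.25% of all reads and 5.32% of sense counts without Mir335. The count of neighbouring pairs past 2-fold was 68 (79.1%) with both neighbours at 10 CPM. It was also 68 (81.9%) among rows with a RefSeq hairpin and no mature arm at another locus, an alternative chosen after seeing the data. That set holds no miR-30 pair, and its neighbours are adjacent among the rows kept. Both alternatives test fewer pairs. With counts on both strands all 6 members had a lower CPM, from the larger total; for Mir30b (119 CPM) and Mir30d (8840 CPM) this exceeded their small SD. With either library left out, the log2 ratios were 8.12 to 8.18 for Mir30a over Mir30c-2, -6.22 to -6.21 for Mir30b over Mir30d and 8.28 to 8.42 for Mir30e over Mir30c-1. The family's share was then 4.45% to 5.01%, and the count of neighbouring pairs 116 to 117. No member passed 1.5-fold between libraries under 7 other settings, where 3.30% to 16.2% of genes did, and none passed 2-fold, where 0.694% did; the minimum of 100 CPM left out Mir30c-1 and Mir30c-2. No paired analysis was possible because the study has 1 group. Counting error is wide at Mir384, with 8 counts in replicate 1 and 15 in replicate 2. With 2 libraries, an SD rests on 1 difference.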
